A study of Homo sapiens with 42 samples.

Results

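The kallikrein-related peptidases examined here were KLK5, KLK6, KLK7, KLK8, KLK10, KLK11, KLK12 and KLK13, 8 genes of the 19775 that had a probe set of their own. They were chosen by name, with earlier results of these data known. The platform annotation gives 15 probe sets to these genes alone, and where a gene had several, the brightest one on average across the 42 arrays stood for it. Gene expression was measured on single-colour Affymetrix arrays in lines of squamous carcinoma of the head and neck (HNSCC). The lines SCC25, SQ20B, SCC61, SCC047, SCC090 and 93VU147T each had 3 control arrays and 3 arrays after cetuximab, an antibody that blocks the epidermal growth factor receptor (EGFR), at 100 nM for 24 h. HaCaT, an immortalised keratinocyte line, had 3 control arrays alone, and the line SCC1 had 3 cetuximab arrays alone. The study describes SCC25, SQ20B and SCC61 as negative and SCC047, SCC090 and 93VU147T as positive for human papillomavirus (HPV). Each line is 1 culture model, and nothing in the labels says that the 3 arrays of a group came from separate cultures, so the p-values measure the spread between these arrays, which may be technical.

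Kallikrein-related peptidases are secreted serine proteases encoded side by side on chromosome 19. They leave the cell as inactive zymogens that other proteases cut into the active form, and in the outer epidermis KLK5, KLK7 and their relatives cleave the desmosomal proteins that hold cornified cells together. SPINK-type and serpin inhibitors restrain them, and some cleave protease-activated receptors. On GRCh38.p14 the members run from chr19:50943303 (start of KLK5) to chr19:51065679 (end of KLK13), in the order KLK5, KLK6, KLK7, KLK8, KLK10, KLK11, KLK12 and KLK13. KLK9, which is not a member, lies between KLK8 and KLK10.

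RefSeq start sites were given for 7 of the 8 members, 12 in all. The 250 bases before the start are shown for KLK10, which had the widest range among untreated lines, KLK5, which had the largest difference between HaCaT and the tumour lines, and KLK6 and KLK11, which hold an AP-2 motif. The coordinates are GRCh38.p14, minus strand, as chr19:51019862-51020111 for KLK10, chr19:50953039-50953288 for KLK5, chr19:50969592-50969841 for KLK6 and chr19:51026617-51026866 for KLK11. The sequences read 5′ to 3′ and capitals mark matches.
KLK10: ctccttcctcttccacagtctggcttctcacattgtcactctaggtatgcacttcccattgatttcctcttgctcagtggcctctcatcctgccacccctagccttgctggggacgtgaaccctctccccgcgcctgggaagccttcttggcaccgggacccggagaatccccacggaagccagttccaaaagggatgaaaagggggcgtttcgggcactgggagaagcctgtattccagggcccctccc
KLK5: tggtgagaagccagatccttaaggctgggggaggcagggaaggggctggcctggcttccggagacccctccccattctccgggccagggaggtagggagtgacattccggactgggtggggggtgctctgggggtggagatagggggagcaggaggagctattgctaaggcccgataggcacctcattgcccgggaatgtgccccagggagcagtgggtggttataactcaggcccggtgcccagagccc
KLK6: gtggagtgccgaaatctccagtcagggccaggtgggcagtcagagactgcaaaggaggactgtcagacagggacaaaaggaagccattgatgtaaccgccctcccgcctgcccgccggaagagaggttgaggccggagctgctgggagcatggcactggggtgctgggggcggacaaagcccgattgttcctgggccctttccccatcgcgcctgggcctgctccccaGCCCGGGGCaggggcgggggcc
KLK11: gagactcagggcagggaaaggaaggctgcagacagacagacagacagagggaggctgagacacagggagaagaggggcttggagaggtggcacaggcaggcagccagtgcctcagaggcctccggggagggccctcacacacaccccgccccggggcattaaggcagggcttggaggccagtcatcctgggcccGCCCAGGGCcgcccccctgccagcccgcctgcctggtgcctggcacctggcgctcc
Both strands were searched for 3 motifs. The AP-1 motif was written as TGANTCA. The AP-2 motif was written as GCCNNNGGC. The TATA motif was written as TATAAA. AP-2 letters were found in 3 of the 12 member promoters, of KLK6 (GCCCGGGGC), KLK11 (GCCCAGGGC) and KLK13 (GCCCCTGGC), and in 19.8% of all 35116 promoters. Neither AP-1 letters (6.57% of all promoters) nor TATA letters (10.7%) were found in the 12. A match is a description of letters and not of a bound site.

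The untreated lines spanned a wide range in most members. KLK10 was lowest in SCC090, at 4.23 ± 0.0987 (SD, n = 3) on the log2 scale, and highest in SCC047, at 12.08 ± 0.105. Between them came SQ20B at 6.26, SCC61 at 7.61, 93VU147T at 9.49, SCC25 at 9.71 and HaCaT at 10.16. SCC25 and 93VU147T were the neighbours whose difference did not pass the test (limma, adjusted p = 0.111). The levels are log2 intensities with no detection call, so a low value is not an absence, and values of different genes are not compared.

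KLK5, which starts proteolytic cascades in skin, was highest in SCC25, at 11.10 ± 0.0695, next to HaCaT at 10.91 ± 0.0316 (adjusted p of the difference = 0.0738). SCC047 followed at 9.13, SCC61 at 7.49, 93VU147T at 5.82, SQ20B at 5.26 and SCC090 at 4.56. KLK7, a chymotrypsin-like protease of the cornified layer, was highest in HaCaT, at 9.10, against 7.50 in SCC25, 7.12 in SCC047, 7.00 in 93VU147T, 6.30 in SQ20B, 6.25 in SCC61 and 5.16 in SCC090. Of these, SCC047 and 93VU147T (adjusted p = 0.326) and SQ20B and SCC61 (adjusted p = 0.743) did not pass the test of their difference.

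KLK6 was at 7.85 in SCC047, 7.04 in HaCaT, 6.57 in SQ20B, 6.05 in 93VU147T, 5.77 in SCC25, 5.49 in SCC61 and 4.67 in SCC090. KLK8, also called neuropsin, was at 10.71 in SCC047 and 5.10 in SCC090. HaCaT at 9.37, 93VU147T at 9.23 and SCC25 at 9.14 lay close together, and neither HaCaT with 93VU147T (adjusted p = 0.232) nor 93VU147T with SCC25 (adjusted p = 0.554) passed the test. SQ20B at 8.16 and SCC61 at 7.94 were also not separated (adjusted p = 0.0827).

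KLK11 and KLK13 shared an order at the top, with SCC047 first (8.45 and 7.03), HaCaT second (7.72 and 6.55) and SCC25 after them (6.61 and 6.01). Below them SQ20B, SCC61 and 93VU147T lay at 5.14, 5.32 and 5.16 for KLK11 and at 4.99, 4.98 and 4.91 for KLK13, and none of these pairs passed the test in either gene. SCC090 was the lowest line in both, at 4.82 and 4.59. The group means of KLK12 ran only from 6.10 in SCC090 to 6.44 in SCC047, and SCC090 differed from the other lines, none of which differed from each other past the threshold.

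**Figure D1:**
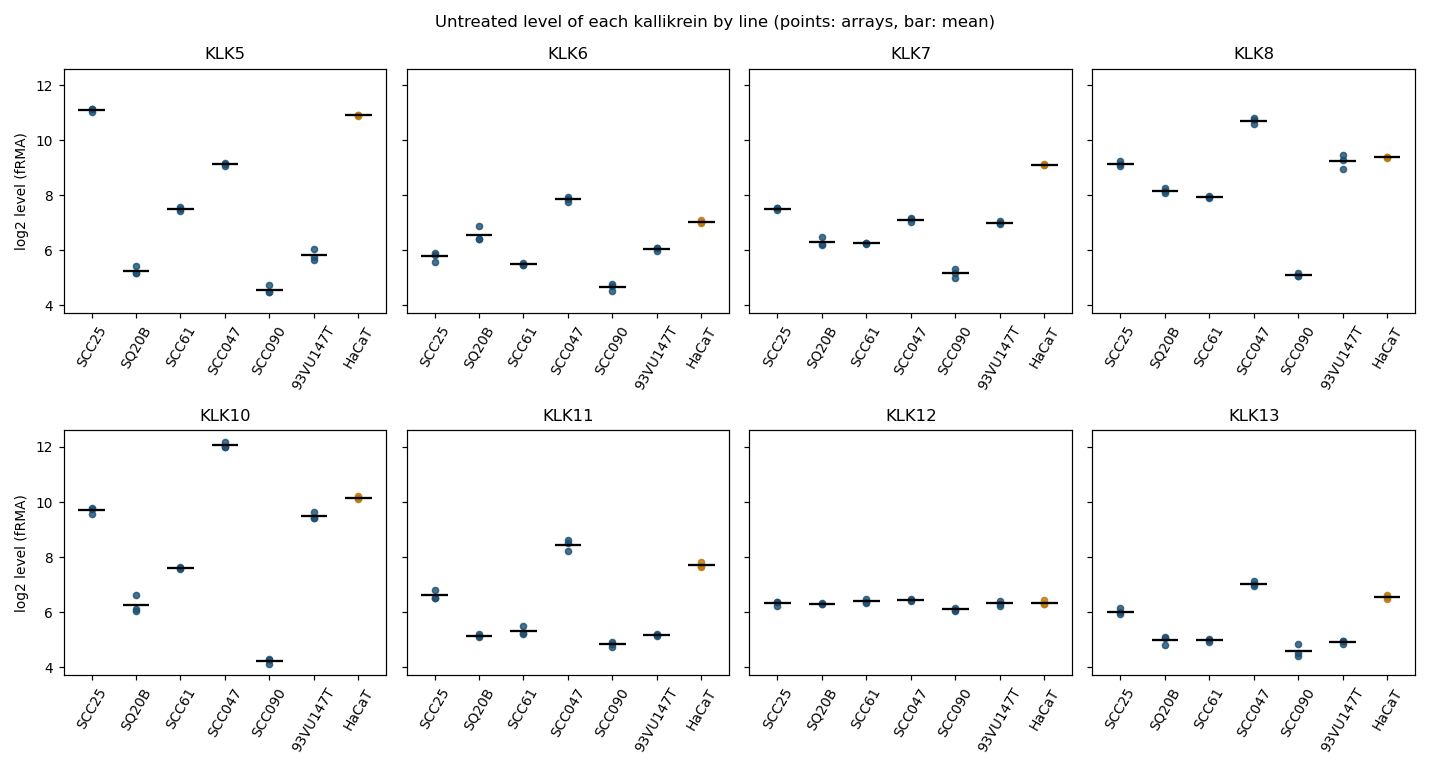
Untreated log2 level of each gene (y axis, fRMA log2 units) in the 6 tumour lines and HaCaT (x axis), with 1 point per array and a bar at the mean of 3. SCC090 is the lowest line in every panel, and the panel of KLK12 is nearly flat.

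HaCaT was compared with the mean of the 6 untreated tumour lines. Of the 8 members, 7 were higher in HaCaT at an adjusted p under 0.05, where 25.9% of all genes were higher. KLK5 was 3.68 higher on the log2 scale (SE 0.0715), KLK7 2.55 (SE 0.0686), KLK10 1.93, KLK11 1.81, KLK13 1.13, KLK8 1.00 and KLK6 0.97. KLK12 differed by 0.02 (adjusted p = 0.779). All HaCaT arrays were scanned in a batch of their own, so line and scan cannot be told apart, and SCC047 lay above HaCaT in KLK6, KLK8, KLK10, KLK11 and KLK13.

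KLK10, a secreted protease of many epithelia, rose with cetuximab in 4 of the 6 lines. In bulk RNA, fewer cells with a transcript and less of it per cell cannot be told apart. KLK10 read 7.62, 7.63 and 7.58 in the control arrays of SCC61 and 9.37, 9.27 and 9.29 in the treated ones. All treated arrays lay above all controls, a rise of 1.70 (SE 0.117, 3.25-fold, adjusted p = 1.61e-13). KLK10 read 6.03, 6.63 and 6.11 in the control arrays of SQ20B and 7.80, 7.85 and 7.97 in the treated ones. The rise was 1.62 (3.07-fold, adjusted p = 1.84e-12), and the second control array lay above the other controls but below every treated array. KLK10 rose by 0.84 in SCC25 (adjusted p = 4.29e-06) and by 0.81 in 93VU147T (adjusted p = 1.87e-06). KLK10 read 12.02, 12.20 and 12.01 in the control arrays of SCC047 and 11.90, 11.82 and 11.62 in the treated ones. The groups did not overlap, but the difference of -0.29 missed the threshold (adjusted p = 0.0505). It passed with quantile normalization (-0.37, adjusted p = 0.0124), dim genes left out (0.0324) or same-numbered arrays taken as pairs (0.0368). All 42 arrays in the fit (0.0366), scan batch as a covariate (0.0346) or leaving out cetuximab replicate 1 (0.039) also gave a call. Gene medians centred or probe sets averaged did not. In SCC090, the line with the lowest level, the difference was 0.04 (95% interval -0.19 to 0.28). A second, dimmer KLK10 probe set rose by 0.38 in SCC61 (adjusted p = 0.0153), 0.72 in SCC25 and 0.58 in 93VU147T, but its difference of 0.18 in SQ20B did not pass (adjusted p = 0.308), so the size of the KLK10 rise in SQ20B and SCC61 rests on the brighter one. In SCC047 the dimmer probe set differed by 0.04 (adjusted p = 0.879), on the other side of 0 from the brighter one.

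KLK5 rose in the 3 HPV-negative lines and fell in SCC047. KLK5 read 7.55, 7.50 and 7.42 in the control arrays of SCC61 and 9.08, 9.09 and 9.15 in the treated ones. The rise was 1.61 (SE 0.0998, 3.06-fold, adjusted p = 1.35e-14), with no overlap. It was 1.07 in SQ20B (adjusted p = 4.53e-10) and 0.56 in SCC25 (adjusted p = 0.000132). KLK5 read 9.14, 9.18 and 9.07 in the control arrays of SCC047 and 8.57, 8.63 and 8.29 in the treated ones. Here every treated array lay below every control, a difference of -0.63 (adjusted p = 6.32e-06). The differences in SCC090, -0.05, and in 93VU147T, 0.09, did not pass the test.

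KLK8 also rose in the HPV-negative lines and fell in SCC047. KLK8 read 8.14, 8.08 and 8.25 in the control arrays of SQ20B and 9.51, 9.52 and 9.66 in the treated ones. The rise was 1.41 (2.65-fold, adjusted p = 6.55e-12), against 0.90 in SCC61 (adjusted p = 2.12e-08) and 0.56 in SCC25 (adjusted p = 0.000335). KLK8 read 10.74, 10.80 and 10.59 in the control arrays of SCC047 and 9.80, 9.94 and 9.78 in the treated ones. That difference was -0.87 (SE 0.108, adjusted p = 1.09e-07), with no overlap. Neither SCC090 (0.08) nor 93VU147T (0.23, adjusted p = 0.101) passed the test, though 93VU147T did with gene medians centred (0.31, adjusted p = 0.0237).

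KLK6 rose most in the HPV-positive line 93VU147T. KLK6 read 6.10, 6.09 and 5.97 in the control arrays of 93VU147T and 7.16, 7.30 and 7.13 in the treated ones. The rise was 1.15 (2.22-fold, adjusted p = 1.92e-10). It was 0.97 in SQ20B (adjusted p = 3.01e-09), 0.61 in SCC61 (adjusted p = 5.29e-06) and 0.34 in SCC25 (adjusted p = 0.0147). The call in SCC25 was lost without 1 of 3 arrays in turn, cetuximab replicate 1 (adjusted p = 0.074), cetuximab replicate 3 (0.0555) or control replicate 1 (0.127). In SCC047 the treated arrays lay -0.23 from the controls (adjusted p = 0.0729).

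KLK7 rose in SCC61 and, by less, in SCC25. KLK7 read 6.26, 6.27 and 6.23 in the control arrays of SCC61 and 7.17, 7.47 and 7.33 in the treated ones. The rise was 1.07 (adjusted p = 4.79e-11) against 0.30 in SCC25 (adjusted p = 0.025). The SCC25 call was lost without cetuximab replicate 1 (adjusted p = 0.0902), cetuximab replicate 3 (0.0704), control replicate 2 (0.0987) or control replicate 3 (0.0513), and also with gene medians centred (0.0514) or quantile normalization (0.0708). In SQ20B the difference was 0.20 (adjusted p = 0.114).

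KLK11 fell in SCC047. KLK11 read 8.50, 8.62 and 8.23 in the control arrays of SCC047 and 7.90, 7.88 and 7.38 in the treated ones. The difference was -0.73 (SE 0.129, adjusted p = 3.20e-05). It rose by 0.39 in SCC61 (adjusted p = 0.015), where the groups overlapped, and by 0.33 in SQ20B (adjusted p = 0.0498). The KLK11 difference of 0.36 in SCC25, without overlap, did not pass (adjusted p = 0.0581). That difference passed with same-numbered arrays taken as pairs (0.0163) and with all 42 arrays in the fit (0.0435). With scan batch as a covariate (0.0463) and without control replicate 1 (0.0294) it also passed. The SQ20B call was lost without any 1 of its 6 arrays (adjusted p from 0.0639 to 0.146) and with gene medians centred (0.104). The SCC61 call was lost with gene medians centred (adjusted p = 0.0638) and without cetuximab replicate 1, where the change was 0.21 (adjusted p = 0.2), control replicate 1 (adjusted p = 0.0676) or control replicate 2 (0.063). KLK12 and KLK13 fell in SCC61, by 0.24 (adjusted p = 0.0177) and by 0.28 (adjusted p = 0.0277) on the log2 scale, and with the probe sets used were called in no other line. The KLK12 call was lost without cetuximab replicate 1 (adjusted p = 0.0532), cetuximab replicate 2 (0.0907) or control replicate 1 (0.0879). The KLK13 call was lost without cetuximab replicate 3 (adjusted p = 0.18), control replicate 1 (0.0861) or control replicate 3 (0.0637), and with quantile normalization (0.0572). No other probe set of either gene passed in SCC61, at an adjusted p over all probe sets of 0.161 and 0.181 for KLK12 and of 0.0823 and 0.101 for KLK13. KLK12 was also called lower in SQ20B with gene medians centred (-0.25, adjusted p = 0.0207) or quantile normalization (-0.27, adjusted p = 0.0146). KLK13 was called higher in SCC090 without control replicate 2 (0.41, adjusted p = 0.0216).

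**Figure D2:**
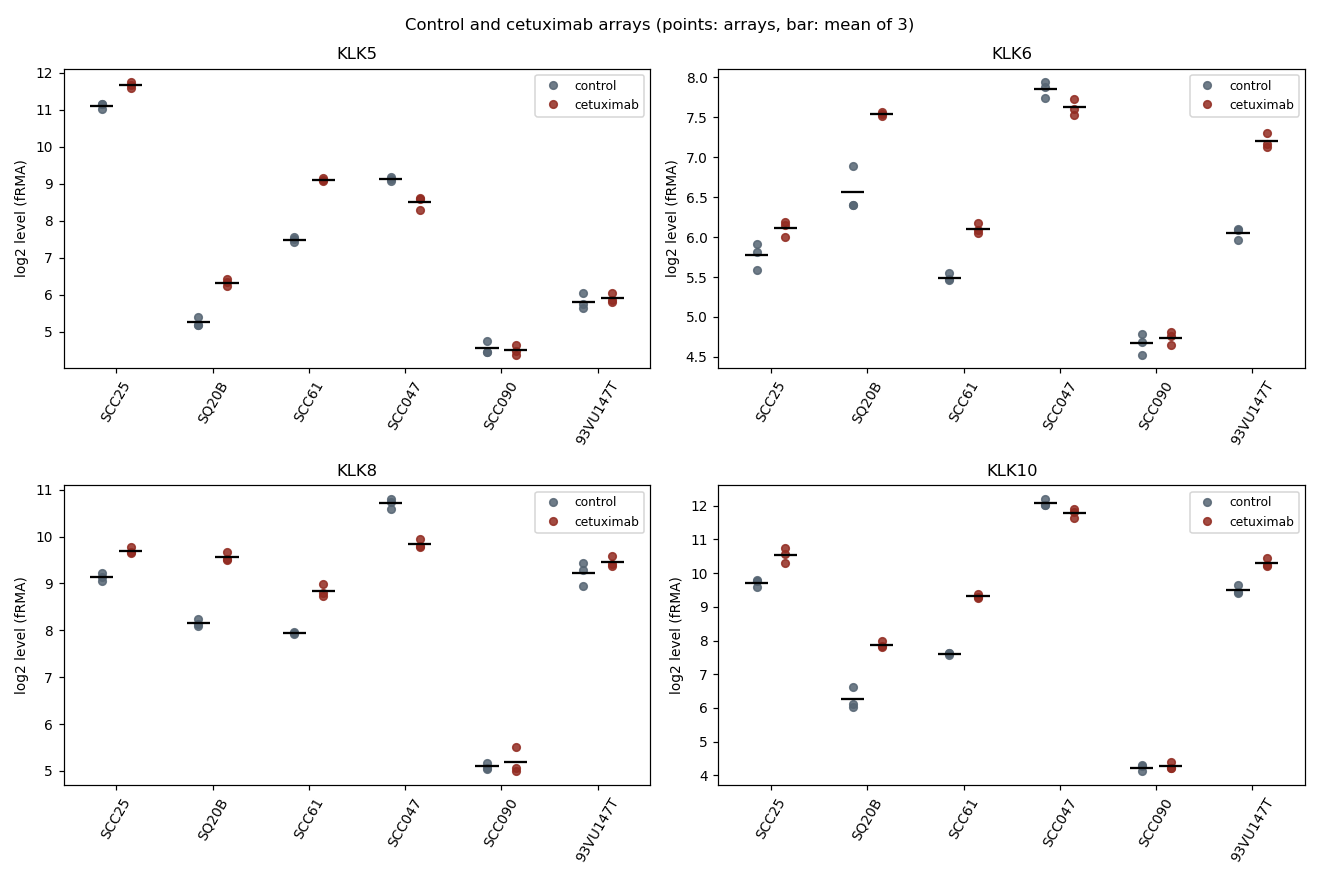
Log2 level (y axis, fRMA log2 units) of KLK5, KLK6, KLK8 and KLK10 in control (grey) and cetuximab (red) arrays of each line (x axis), with 1 point per array and a bar at the mean. Treated arrays lie above controls in SCC25, SQ20B and SCC61 for each gene, below them in SCC047, and overlap them in SCC090.

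Counted by line, 5 members rose in SCC25 (8.66% of all genes rose), 5 in SQ20B (18.4%), and 6 in SCC61 (24.4%), where 2 fell (19.8%). In SCC047 3 fell (19% of all genes fell) and none rose. In 93VU147T 2 rose (15.8%), and in SCC090 none was called, beside 1.40% of all genes called there in either direction. The median change of the 8 members was 0.35 in SCC25, 0.65 in SQ20B, 0.76 in SCC61, -0.26 in SCC047, 0.06 in SCC090 and 0.18 in 93VU147T, against medians over all genes from -0.04 to 0.00. Of all genes called, the share that rose depended on the scaling. It was 55.2% in SQ20B and 39.2% with each array centred on the median of its genes, 55.2% and 36.9% in SCC61, 47.7% and 66.6% in SCC047, and 45.7% and 63.4% in 93VU147T. The median change of all genes in SCC61 went from -0.03 to -0.14 with it. Centring on the median of all probe sets, which was added after that effect had been seen, gave 58.5%, 59.5%, 50.6% and 49.3%.

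**Figure D3:**
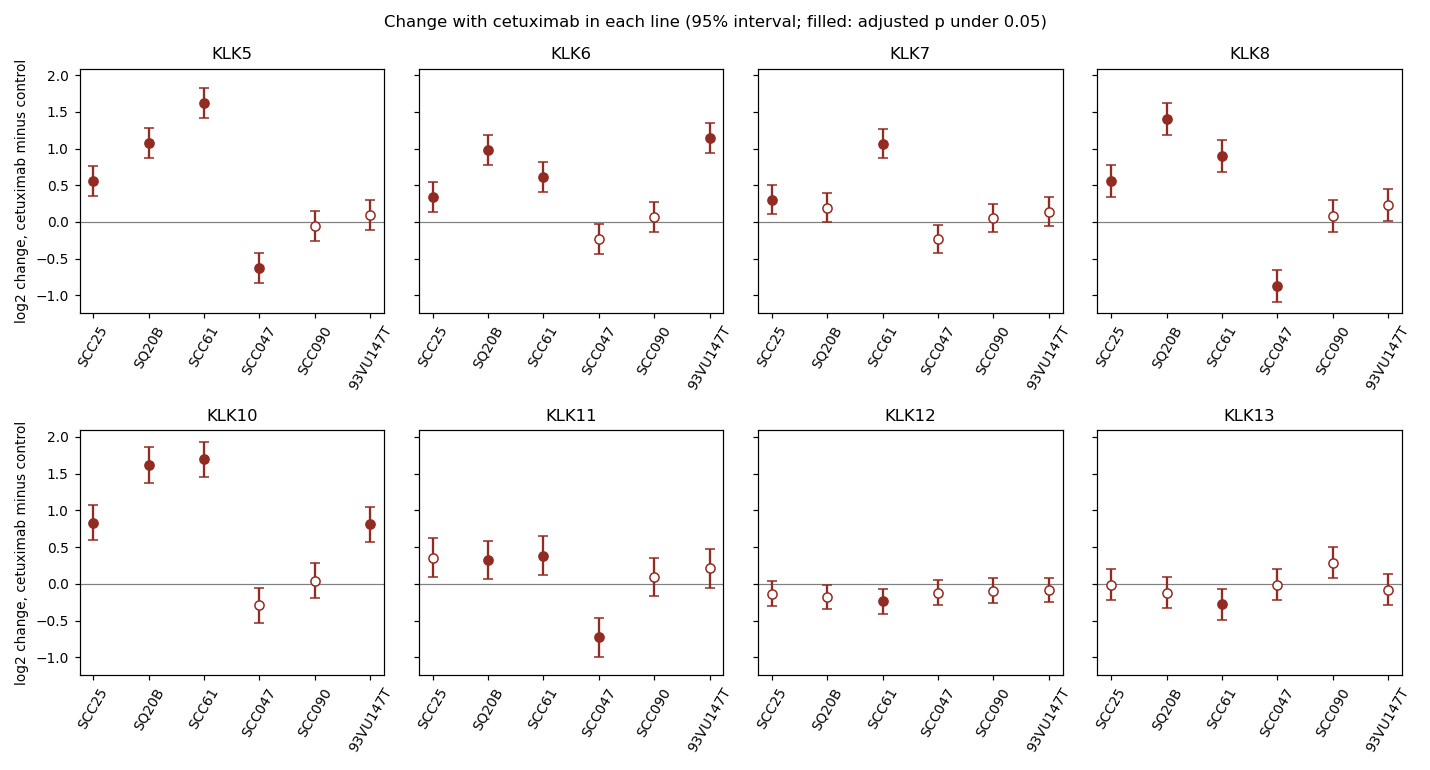
Log2 change with cetuximab (y axis, cetuximab minus control) for each gene in the 6 lines (x axis), with 95% intervals and filled points where the adjusted p was under 0.05. KLK5, KLK8 and KLK11 have called rises in HPV-negative lines and a called fall in SCC047.

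In the mean of the 6 lines, 5 members rose (22.8% of all genes rose) and KLK12 fell (23.1% fell). KLK10 rose by 0.79 (SE 0.0478), KLK6 by 0.49, KLK5 by 0.44, KLK8 by 0.38 and KLK7 by 0.26. KLK12 changed by -0.14 (adjusted p = 0.000868), KLK11 by 0.11 (adjusted p = 0.0974) and KLK13 by -0.04 (adjusted p = 0.517). The choice of probe set decided the mean calls of KLK12 and KLK13. With the KLK12 probe set of the highest variance the mean was -0.09 (adjusted p = 0.0982). With the second KLK13 probe set it was a called fall of -0.19 (adjusted p = 0.00141), and with the KLK13 probe sets averaged one of -0.11 (adjusted p = 0.00637). The changes differed between the 6 lines in 7 members by the moderated F test, all but KLK12, where 59.0% of all genes passed it. For KLK13 that call was lost without any of 7 single arrays of SCC61 or SCC090 (adjusted p from 0.0521 to 0.124), with quantile normalization (0.086) and with its probe sets averaged (0.137). For KLK5, KLK8 and KLK11 the mean covers called changes in opposite directions.

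The mean change of the HPV-negative lines exceeded that of the HPV-positive lines in 6 members, and 22.3% of all genes went that way. The difference of the changes was 1.28 for KLK5, 1.20 for KLK10, 1.14 for KLK8, 0.53 for KLK7, 0.50 for KLK11 and 0.31 for KLK6. KLK12 (-0.09, adjusted p = 0.346) and KLK13 (-0.20, adjusted p = 0.0589) did not pass. Both passed with gene medians centred, KLK12 at -0.22 (adjusted p = 0.0101) and KLK13 at -0.34 (adjusted p = 0.00196). KLK12 also passed with quantile normalization (adjusted p = 0.0109), and KLK13 with all 42 arrays in the fit (0.0426) or scan batch as a covariate (0.0195). The second KLK13 probe set lay at 0.06, on the other side of 0. With the dimmer KLK10 probe set the difference was 0.20 and did not pass (adjusted p = 0.144). With 3 lines of each kind, whose own changes vary widely, HPV status cannot be told apart from other differences between the lines. The 3′ minus 5′ shift of the ACTB control probe sets rose by 0.29 in SQ20B, 0.11 in SCC047 and 0.07 in SCC25, and that of GAPDH by 0.07 in SQ20B and 0.04 in SCC047, each at the smallest exact p that 3 against 3 arrays allow, 0.1 (two-sided permutation test). The part of these shifts in the changes of these lines was not tested.

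Where a gene had further probe sets of its own, they were compared with the one used. Over the 14 group means the second probe set of KLK7 correlated with the first at 0.97, that of KLK8 at 0.97 and that of KLK10 at 0.86, as descriptions over groups that share lines. The second KLK8 probe set rose by 1.89 in SQ20B and changed by -0.63 in SCC047 (adjusted p = 0.000972), and it also rose in 93VU147T, by 0.58 (adjusted p = 0.00252). The second KLK7 probe set rose by 0.78 in SQ20B (adjusted p = 3.98e-05), where the first did not pass. In SCC047 the KLK7 probe sets pointed opposite ways, -0.23 (adjusted p = 0.054) and 0.34 (adjusted p = 0.0609), so no direction is given for KLK7 there. The second KLK13 probe set changed by -0.42 in SCC047 (adjusted p = 0.006), where the first differed by -0.01. In untreated HaCaT against the tumour lines the first KLK13 probe set was 1.13 higher and the second 0.37 higher. The third differed by 0.05 there and did not pass (adjusted p over all probe sets = 0.67).

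**Figure D4:**
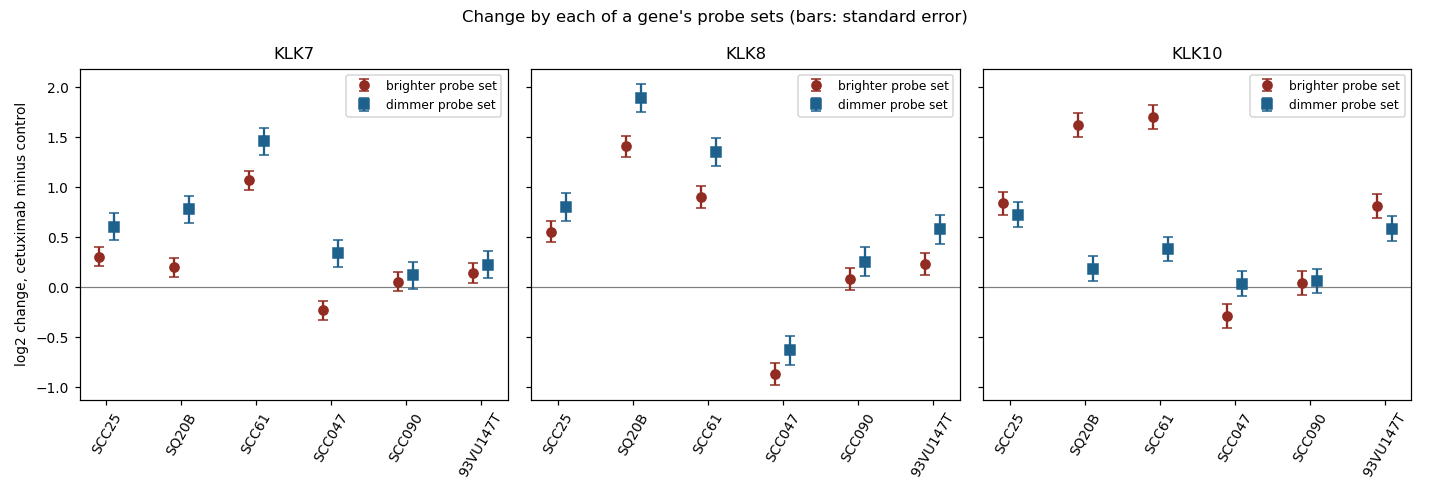
Log2 change with cetuximab (y axis) in each line (x axis) for the brighter and the dimmer probe set of KLK7, KLK8 and KLK10, with standard errors. In SCC047 the probe sets of KLK7 lie on opposite sides of 0, and so do those of KLK10.

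The remaining kallikreins changed little. Of the 7 others, 6 had a probe set of their own, with group means spanning under 0.9 log2 units each. None was called in SCC25, SQ20B, SCC090 or 93VU147T, where 16.0%, 33.3%, 1.40% and 34.6% of all genes were called in either direction. KLK3 fell in SCC61 (-0.32, adjusted p = 0.0199) and KLK1 in SCC047 (-0.27, adjusted p = 0.00383). In the mean of the lines KLK3 (-0.14) and KLK4 (-0.10) fell, beside 23.1% of all genes, while KLK2 (-0.01), KLK14 (0.03) and KLK15 (0.06) did not pass. Of the 6, 2 were called higher in the HPV difference (22.3% of all genes). Against the untreated tumour lines, 2 were higher in HaCaT and 2 lower (25.9% and 31.2%). Of the 16 genes that lie near the cluster on the chromosome, 14 were measured, and in the mean none rose and 4 fell, a share near the 23.1% of all genes that fell, ACP4 (-0.20), SIGLEC9 (-0.15), CLEC11A (-0.14) and NKG7 (-0.12).

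Genes that activate or restrain these proteases were read in the mean of the lines, where 22.8% of all genes rose and 23.1% fell. Of 6 genes of zymogen activation, 2 rose and 2 fell. TMPRSS11E, a membrane serine protease, rose by 0.79 and ST14, matriptase, by 0.19, while HPN, hepsin, changed by -0.17 and SPINT2, an inhibitor of such proteases, by -0.09. Of 5 measured kallikrein inhibitors, SPINK6 rose by 0.25 and SERPINA5 fell by 0.11 on the log2 scale. SPINK6 rose by 0.97 in SCC61 and by 1.08 in SCC047, lines where KLK5 changed in opposite directions. Of 8 measured substrates and receptors, 3 rose and 3 fell, again beside 22.8% and 23.1% of all genes. E-cadherin (CDH1) rose by 0.39, while IL1B changed by -0.75 and the thrombin receptor F2R by -0.31.

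Of 16 measured squamous differentiation genes, 11 rose in the mean and none fell, beside 22.8% and 23.1% of all genes. Their median was 0.43, beside -0.02 over all genes. KRT13, a keratin of stratified mucosa, rose by 1.36, IVL, a cornified envelope protein, by 0.79 and TGM1, which crosslinks that envelope, by 0.79. In SCC047 the list had 4 rises and no fall (17.3% of all genes rose), and TGM1 was at -0.31 there (adjusted p = 0.0967). The list had 11 rises and 1 fall in SCC61 (24.4% rose), and 7 rises in SCC25 (8.66%). It had 4 rises in SQ20B (18.4%), with a median of 0.04, and 4 rises and 1 fall in 93VU147T (15.8%), with a median of -0.03. In SCC090, where no member was called, 4 rose (0.516%), with a median of 0.49. Of the 16 genes read as output of ERK signalling, 15 fell in the mean (23.1% of all genes) and EPHA4 rose, by 0.20. EGR1 changed by -2.62, DUSP5 by -1.26 and DUSP6, which dephosphorylates ERK, by -2.31. In SCC090, 7 of the 16 fell, beside 0.885% of all genes. Of 7 measured nuclear receptors, of steroids and other ligands, 2 rose and 1 fell in the mean, beside 22.8% and 23.1% of all genes. RARA, a retinoic acid receptor, changed by -0.41, NR3C1, the glucocorticoid receptor, by 0.18 and RARG, a retinoic acid receptor, by 0.12.

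Markers of the epithelial label and of other cell types were read as levels. The mean level of 5 keratinocyte markers was 9.12 to 12.5 over the 14 groups, and single markers ran from 4.85 in SQ20B controls to 14.2 in treated SCC25. The mean of 9 fibroblast markers was 4.68 to 6.34, with single markers from 2.93 to 9.92. For 6 leukocyte markers the means ended at 5.60 and single markers at 7.87, and for 6 endothelial markers at 5.28 and 6.45. The single values of the lists overlap and probes differ in brightness, so the lists are not set against each other. The keratinocyte mean was 9.12 in control and 9.79 in treated SQ20B arrays, with 4 of the 5 markers called higher (18.4% of all genes). It was 9.56 and 10.1 in 93VU147T, with 3 called higher (15.8%). In SCC25 2 were called higher (8.66%). In each of SCC61, SCC047 and SCC090, 1 was called higher and 1 lower. Of all genes, 44.1%, 36.2% and 1.40% were called there in either direction. The HPV difference was called higher in 1 keratinocyte marker (22.3% of all genes), with a median of -0.05. Of the 9 fibroblast markers, 2 rose and 2 fell in the mean of the lines (22.8% and 23.1% of all genes), with a median of 0.05. Among them LUM rose by 1.80 in SCC25, 0.50 in SQ20B and 0.67 in SCC61, and COL1A1 by 0.39, 1.83 and 0.52. In SCC047 COL1A1 fell (-0.47) and LUM was at -0.05, so both moved with the HPV difference, by 1.07 for COL1A1 and 1.12 for LUM. Of all 9 fibroblast markers, that difference was called higher in 3 and lower in 2, beside 22.3% and 14.9% of all genes. Of the 6 leukocyte markers, none rose and 2 fell in the mean, beside 22.8% and 23.1% of all genes. LAPTM5 fell in each line but SCC090 and changed by -0.59 in the mean. CD14 was called higher in SCC25 (0.64). In SCC61 1 of the 6 rose and 4 fell, beside 24.4% and 19.8% of all genes. Among these 6 the HPV difference was called higher in 2 and lower in 2, beside 22.3% and 14.9%. The part of these markers in the changes of the members was not tested.

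Genes whose 14 group means followed a member most closely, among 5866 with a standard deviation of at least 0.5, were IFITM1 (r = 0.97) and FHOD3 (0.95) for KLK8, CA2 (0.95) and IFITM1 (0.94) for KLK10, and MMP13 (0.96) and SLC2A12 (0.95) for KLK11. They were MMP13 (0.93) and TTYH2 (0.92) for KLK13, DLX2 (0.94) and COPZ2 (0.93) for KLK5, BLACAT1 (0.93) and RNF170 (0.92) for KLK6, ARL14 (0.91) and AFAP1L2 (0.89) for KLK7, and PLAU (0.86) and CHRNB1 (0.79) for KLK12. Among the members themselves the correlation was highest between KLK11 and KLK13, at 0.97, and 0.90 between KLK8 and KLK10. These are descriptions over groups of 8 lines, of which 6 appear as control and treated.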

How the data were processed

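The authors measured RNA on Affymetrix hgu133plus2.0 arrays in 3 technical batches and normalised them with fRMA. The deposited values were log2 expression values per probe set, and whether the study's batch correction is in them was not given in the sources used here. Array medians were 5.09 to 5.16. Of 54675 probe sets, 41091 had 1 gene symbol, 1801 several and 11721 none here, and 62 were array controls. Per gene the probe set with the highest mean was kept (19775 genes). Group means were fitted with limma 3.58.1 in R 4.3.3, over 36 arrays for the cetuximab changes (24 residual and 6.86 prior degrees of freedom) and over 42 for untreated lines, with Benjamini-Hochberg adjustment over all genes and calls at an adjusted p under 0.05. Scan batches held 35, 4 and 3 arrays. One SQ20B control array was scanned with SCC1. The array number limits precision. The members and gene lists were chosen with earlier results of these data known. Genes named were the members, the other kallikreins, up to 3 called genes per list with the largest mean change, and the 2 best-correlated genes per member; the lines shown for a listed gene were chosen after their values were seen. Alternatives covered the probe set choice, scaling, filter, covariates and leaving out each array. A second centring was added after the effect of the first was seen.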

Additional observations from a re-analysis of the deposited data

Results flagged for a closer look

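The change with cetuximab differed between the 6 lines in 7 members, of which KLK13 lost the call without any of 7 single arrays. The adjusted p of the moderated F test in limma was 1.20e-13 for KLK5, 1.52e-09 for KLK6, 2.84e-08 for KLK7, 1.71e-12 for KLK8, 5.13e-12 for KLK10, 1.67e-05 for KLK11 and 0.0311 for KLK13. The other two KLK13 probe sets did not pass the F test (adjusted p = 0.329 and 0.313). The difference between HPV-negative and HPV-positive lines passed the same threshold in 6 members, with an adjusted p of 1.78e-13 for KLK5, 0.00251 for KLK6, 1.42e-06 for KLK7, 1.01e-11 for KLK8, 2.01e-11 for KLK10 and 0.000295 for KLK11. Both tests used the same 36 arrays, and their p-values measure the spread between arrays, not between lines of a kind. Over all genes 59.0% passed the first test, and in 22.3% the second was called higher in the HPV-negative lines. The lines of a kind did not all move alike. KLK6 rose most in 93VU147T (1.15), an HPV-positive line, and KLK10 rose there by 0.81 against 0.84 in SCC25.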

How the results depend on the processing

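A minimum change of 0.5 left 0 called members in SCC25, 4 in SCC61, 1 in SCC047, 1 in 93VU147T, 1 in the mean and 3 for the HPV difference. The 3 called members in SCC047, all falls, became 6 with the probe set of the highest spread. These included a rise of KLK7 (0.338, adjusted p = 0.0454). The count was 5 with dim genes left out (which kept 6 members), 5 with all 42 arrays and 6 with scan batch as a covariate. Leaving out 1 array gave 3 to 5 called members in SCC25 (3 without cetuximab replicate 1 or 3), 5 to 7 in SCC61 (5 without control replicate 1), 3 to 5 in SCC047 (5 without cetuximab replicate 1) and 0 to 1 in SCC090 (1 without control replicate 2). The cause was not tested. Changes of sign were all in values not called in the fit reported, and 1 was called under an alternative, KLK7 in SCC047. With a gene's probe sets averaged they were KLK13 in SCC25 0.00158, KLK7 in SCC047 0.0526, KLK12 in HaCaT against the lines -0.0314. With the probe set of the highest spread between over within groups they were KLK7 in SCC047 0.338, KLK12 in SCC090 0.0482, KLK13 in SCC090 -0.0305, KLK13 in the HPV difference 0.0625, KLK12 in HaCaT against the lines -0.0452. With the probe set of the highest variance they were KLK7 in SCC047 0.338, KLK12 in SCC090 0.0482, KLK12 in HaCaT against the lines -0.0452. With gene medians centred they were KLK13 in SCC047 0.0849, KLK13 in 93VU147T 0.00212. With probe set medians centred they were KLK13 in SCC047 0.0021. With quantile normalization they were KLK13 in SCC047 0.026. Leaving out 1 array gave KLK13 in SCC25 from -0.0605 to 0.0485, KLK13 in SCC047 from -0.0515 to 0.0400, KLK5 in SCC090 from -0.116 to 0.0421, KLK7 in SCC090 from -0.0285 to 0.131, KLK8 in SCC090 from -0.0757 to 0.179, KLK10 in SCC090 from -0.0173 to 0.0788, KLK12 in HaCaT against the lines from -0.0227 to 0.0457. With gene medians centred the KLK6 HPV difference lost its call (adjusted p = 0.0776). Same-numbered arrays correlated from -0.15 to 0.32 in 18 pairs, and 7 of the 18 were over 0.1, so the numbers were not taken as pairs. With the replicate block the genes called in SCC61 were 4884 higher and 3986 lower, against 4819 and 3911 without it, and it called 6 members in SCC25, 4 in SCC047, 7 in the mean and 7 for the HPV difference. Of the 18, 10 treated arrays correlated best with their own number. HaCaT replicates 1 and 2 carry array names that share a number, and averaging them left 7 members called.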

Other observations

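SCC1 had cetuximab arrays alone and entered no comparison. The mean log2 levels of its 3 arrays were 7.48 for KLK5, 5.10 for KLK6, 5.51 for KLK7, 5.58 for KLK8, 7.04 for KLK10, 5.49 for KLK11, 6.36 for KLK12 and 4.99 for KLK13. A probe set annotated to both KLK9 and KLK8 was left out of the gene table. It rose by 0.95 in SCC61, 0.58 in SCC25, 0.42 in SQ20B and 0.33 in 93VU147T (adjusted p = 0.0153), and differed by -0.03 in SCC047 (adjusted p = 0.879).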
